A study of Mus musculus with 9 samples.

Results

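Ciita and 7 genes for the DNA-binding factors that it works with at MHCII promoters were followed across 3 groups of splenic dendritic cells (DCs). The 8 genes were Ciita itself, Rfx5, Rfxap and Rfxank (the subunits of RFX), Nfya, Nfyb and Nfyc (the subunits of NF-Y) and Creb1. They were taken by gene symbol from a table of 54532 genes (28859 with any signal), and each symbol had 1 row. All 8 passed the filter on low values, which kept the 12746 genes with at least 1 FPKM in at least 3 samples.

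Bulk RNA of 9 samples was sequenced, 3 for each group. N-mDCs were mature conventional DCs from the spleens of healthy mice, which received no treatment according to the labels. T-DCs and T-mDCs came from spleens of mice with T cell acute lymphoblastic leukemia (T-ALL). T-DCs were the CD11c+ cells with low surface MHCII, labelled as immature DCs, and T-mDCs were the mature conventional DCs of leukemic mice. In the model, bone marrow c-kit+ cells of C57BL/6J mice carried a retrovirus with the intracellular domain of Notch1 and GFP, and the resulting GFP+ leukemia cells were passed into C57BL/6J or C57B6.SJL recipients without irradiation. These recipients kept their own blood-forming cells. The methods give female sex and an age of 6 to 8 weeks for the mice of the study, name day 15 for the sorted groups and do not tell which recipient strain any sample had. Nothing in the labels says whether a sample came from 1 mouse or from several, so p-values measure the spread between these samples only.

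Peptides are shown to CD4+ T cells on MHCII molecules, which DCs and B cells make in large amounts. The promoters of MHCII genes carry a conserved block with an X1 box bound by RFX, an X2 box bound by CREB and a Y box bound by NF-Y. These factors are present in most cell types. CIITA does not bind DNA itself: it docks on the assembled factors and recruits the machinery of transcription, and it is made in antigen-presenting cells or after interferon gamma. Loss of CIITA, RFX5, RFXAP or RFXANK causes MHCII deficiency in humans.

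The conserved block could be read in RefSeq promoters (build GRCm38.p6, the 250 bases before to 50 after each transcript start). Of 10 MHCII pathway genes, 8 had a promoter in the table, and Cd74 and H2-Ab1 had none. Both strands were searched for GCAAC (a half-site of the X1 box), ATTGG (the Y box) and TGNGTCA or TGACG (the X2 box). GCAAC followed by ATTGG on the same strand after a gap of 20 to 40 bases was found in H2-Aa, H2-Eb1, H2-Eb2, H2-Oa and H2-Ob, which is 5 of the 8 genes. The same pair was found in 332 of 32851 promoters, or 1.01%, and in 1.14% of all genes with a promoter in the table. ATTGG alone was in all 8 genes and in 41.1% of all genes with a promoter. GCAAC alone was in 6 of the 8 and in 38.6% of all such genes, and TGNGTCA or TGACG in 3 of the 8 and in 35.2%. By promoter, the shares of these 3 searches were 37.4%, 35.2% and 32.2%.

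The stretches below show strings of the X1 and Y boxes at MHCII genes, with a TGACG string of the X2 box in H2-Aa alone. Each runs 5′ to 3′ on the gene's strand from 50 bases before ATTGG to 10 bases after it. They cover chr17:34287857-34287921 (H2-Aa, minus strand), chr17:34305758-34305822 (H2-Eb1, plus strand), chr17:34325525-34325589 (H2-Eb2, plus strand), chr17:34092286-34092350 (H2-Oa, plus strand) and chr17:34238798-34238862 (H2-Ob, plus strand). Capitals mark GCAAC at the left and ATTGG at the right, and TGACG between them in H2-Aa.
H2-Aa: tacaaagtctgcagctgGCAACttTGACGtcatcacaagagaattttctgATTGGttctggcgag
H2-Eb1: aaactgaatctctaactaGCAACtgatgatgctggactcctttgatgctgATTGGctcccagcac
H2-Eb2: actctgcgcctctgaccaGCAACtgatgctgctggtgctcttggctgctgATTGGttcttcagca
H2-Oa: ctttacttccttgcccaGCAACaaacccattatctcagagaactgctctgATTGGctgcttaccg
H2-Ob: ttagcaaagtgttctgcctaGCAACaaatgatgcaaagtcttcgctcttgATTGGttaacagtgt

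The gap between GCAAC and ATTGG was 28 bases in H2-Aa and H2-Oa, 27 in H2-Eb1 and H2-Eb2, and 25 in H2-Ob. H2-DMb1 (chr17:34153080-34153144, plus strand) and H2-DMb2 (chr17:34145109-34145173, plus strand) hold ATTGG but not GCAAC at that distance, and they are shown for comparison with only ATTGG in capitals.
H2-DMb1: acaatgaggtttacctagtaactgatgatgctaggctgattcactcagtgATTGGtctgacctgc
H2-DMb2: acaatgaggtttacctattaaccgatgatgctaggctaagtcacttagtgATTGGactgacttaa

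A match is a string of letters and does not show binding. Ciita and Rfxap had no promoter in the table, and none of the other 6 genes held the GCAAC and ATTGG pair in its own promoter.

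Reads on genes ranged from 15360815 to 18440913 per sample. FPKM, the reads on a gene per kilobase divided by a scaling size of the sample, could be turned back into whole reads. The 8 genes had from 193 reads (the lowest Rfxank value) to 13960 reads (the highest Ciita value) in a sample. The scaling size did not equal the reads on genes. It was 15498648 for 16977553 reads in T-DC sample 2 and 18878243 for 17559243 reads in T-mDC sample 1. How this size was set is not given in the sources used here. T-mDC samples 2 and 3 were closer to each other than the samples of any other pair within a group (chi-square per gene 1.85, where counting noise alone gives 1, against 8.11 to 36.2 for the other pairs). They were kept as separate samples. Hemoglobin genes took 3.82% and 3.005% of reads in T-DC samples 2 and 3, 0.0422% in T-DC sample 1, 0.00732% to 0.404% in N-mDCs and 0.0011% to 0.0140% in T-mDCs. The DC markers Itgax, Flt3 and Zbtb46 were at or above 1 FPKM in every sample, and their summed level was 50.9 to 169 FPKM in T-DCs, 214 to 325 in N-mDCs and 232 to 280 in T-mDCs.

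Ciita, the master transactivator of MHCII genes, was the gene of the 8 with the largest difference between the groups. Ciita was at 76.1, 44.2 and 52.9 FPKM in N-mDC samples 1 to 3, at 8.01, 5.95 and 2.48 FPKM in T-DC samples 1 to 3, and at 42.4, 75.8 and 76.7 FPKM in T-mDC samples 1 to 3. Every T-DC sample was below every mature sample, and the ranges of N-mDCs and T-mDCs overlapped. The mean level was 5.48 ± 2.79 FPKM in T-DCs, 57.7 ± 16.5 in N-mDCs and 64.9 ± 19.5 in T-mDCs (SD, n = 3 per group). On the log2(FPKM + 1) scale, T-DCs differed in Ciita from N-mDCs by a log2 difference of -3.25 (SE 0.39, 95% interval -4.15 to -2.36, limma adjusted p = 0.00179), which is 9.52-fold. Against T-mDCs the difference was -3.40 (SE 0.39, 95% interval -4.30 to -2.51, limma adjusted p = 0.00197), which is 10.6-fold.

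Between the mature groups the Ciita difference was 0.15 (T-mDCs minus N-mDCs, 95% interval -0.74 to 1.05, limma adjusted p = 0.876), an interval that holds both lower and higher levels in T-mDCs. The T-DC gate took cells with little MHCII on their surface, the product of the genes that CIITA activates, so the sort bears on Ciita through its targets. Both T-DC comparisons also use the same 3 T-DC samples. In bulk RNA, fewer cells with Ciita RNA and less Ciita RNA per cell cannot be told apart.

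**Figure D1:**
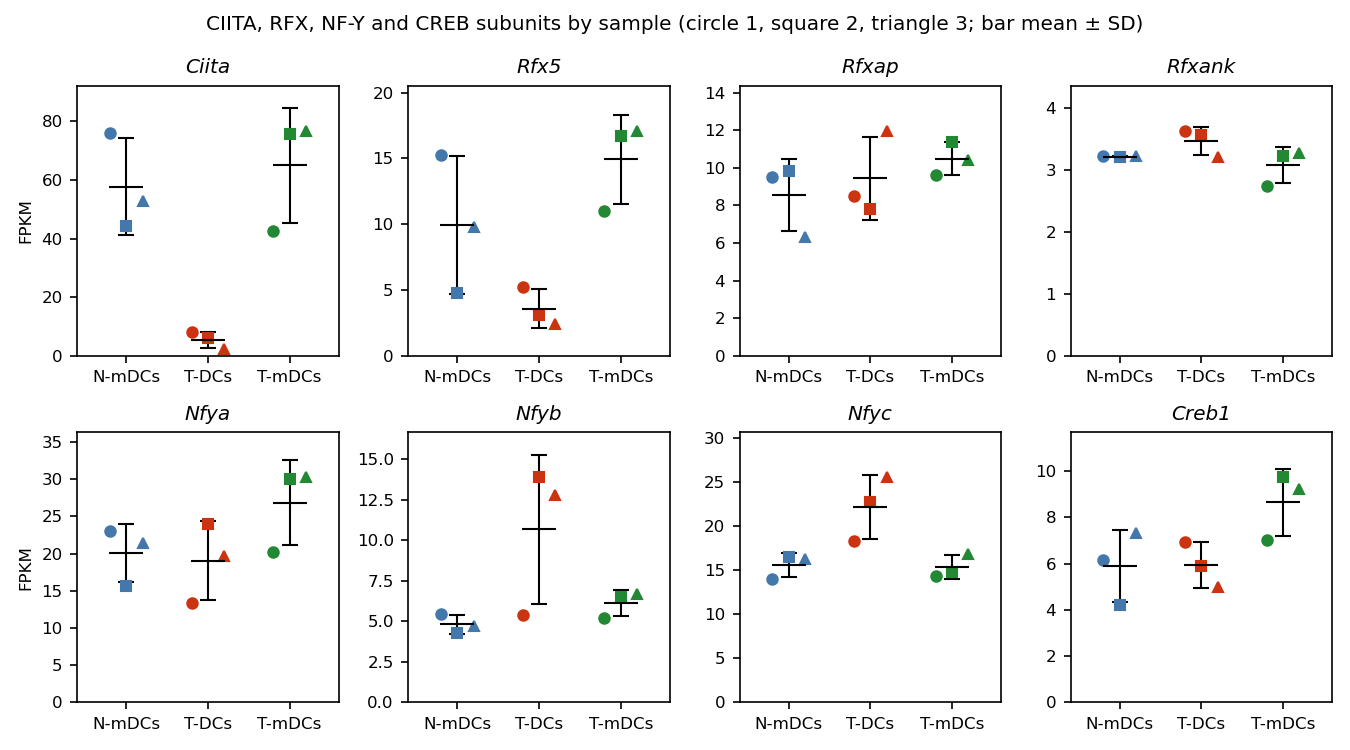
FPKM (vertical axis, from 0, with its own scale in each panel) of the 8 genes in the 3 samples of every group. Each point is 1 sample and the bars are the mean and SD. Ciita is at 2.48 to 8.01 FPKM in T-DCs and at 42.4 to 76.7 FPKM in the 6 mature samples, while Rfxank stays between 2.75 and 3.63 FPKM in all 9.

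Other RNA moved with the groups too. T-DC sample 1 had a hemoglobin share within the range of N-mDCs and 8.01 FPKM of Ciita, and T-DC samples 2 and 3 had the highest shares and 5.95 and 2.48 FPKM. With erythroid RNA (mean of 8 genes) as a covariate, the Ciita difference from N-mDCs was -2.47 (limma adjusted p = 0.0166) and that from T-mDCs was -2.22 and no longer passed (limma adjusted p = 0.193). In that fit no gene at all passed in T-DCs against T-mDCs (1716 genes had an unadjusted limma p under 0.05). The erythroid sums of T-DCs (607 FPKM or more) and T-mDCs (180 FPKM or less) did not overlap. The part of erythroid RNA in the Ciita difference was not tested.

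B cells also express Ciita. The 7 B-cell markers summed to 33.7 to 100 FPKM in T-DCs, 246 to 320 in N-mDCs and 65.8 to 201 in T-mDCs, and 3 of the 7 were at or above 1 FPKM in every T-DC sample. Of the 7, Fcer2a alone was at 0 in a sample (T-DC sample 2). T-DC sample 2 had a B-cell sum of 100 FPKM with 5.95 FPKM of Ciita. T-mDC samples 2 and 3, which were close to each other, had sums of 65.8 FPKM with 75.8 and 76.7 FPKM of Ciita. N-mDCs had the highest sums, with 44.2 to 76.1 FPKM of Ciita. The DC markers were lower in T-DCs as well: Flt3 was at 4.48 to 15.4 FPKM in T-DCs and 44.4 to 89.1 FPKM in the mature samples, and Zbtb46 at 1.84 to 3.42 and 10.7 to 23.5 FPKM. Their part in the Ciita difference was not tested.

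Ciita lies on chromosome 16 (GRCm38, 10480059 to 10528418, plus strand). Its exons share 3.45% of their bases with Dexi on the opposite strand, and the strand setting of the authors' counting is not given in the sources used here. Dexi was itself lower in T-DCs, at 2.93 to 3.73 FPKM against 8.44 to 15.5 FPKM in the mature samples. The log2 difference of Dexi was -1.71 against N-mDCs (SE 0.23, limma adjusted p = 0.00255) and -1.57 against T-mDCs (SE 0.23, limma adjusted p = 0.00396). Ciita is transcribed from several alternative promoters that differ between cell types, and gene-level FPKM does not separate them.

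RFX binds the X1 box as a complex of RFX5, which carries the DNA-binding domain, RFXAP and the ankyrin-repeat protein RFXANK. Rfx5 was at 15.3, 4.76 and 9.81 FPKM in N-mDC samples 1 to 3, at 5.22, 3.12 and 2.40 FPKM in T-DC samples 1 to 3, and at 11.0, 16.7 and 17.1 FPKM in T-mDC samples 1 to 3. T-DCs lay below every T-mDC sample but overlapped N-mDCs, since N-mDC sample 2 was below T-DC sample 1. Rfx5 was lower in T-DCs than in T-mDCs by a log2 difference of -1.82 (SE 0.39, 95% interval -2.71 to -0.93, limma adjusted p = 0.0190), which is 3.53-fold.

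The Rfx5 difference from N-mDCs was -1.18 (SE 0.39, 95% interval -2.07 to -0.29) and did not pass (limma adjusted p = 0.0704), and T-mDCs and N-mDCs differed by 0.64 (95% interval -0.25 to 1.53, limma adjusted p = 0.446). The call against T-mDCs was lost without any 1 of T-DC samples 2 and 3 and T-mDC samples 2 and 3 (limma adjusted p 0.0616 to 0.0869), and with the erythroid covariate (log2 difference -0.48, limma adjusted p = 0.605). The call against N-mDCs was gained without N-mDC sample 2 (log2 difference -1.58, adjusted p = 0.0266) or T-DC sample 1 (-1.42, adjusted p = 0.0244).

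Rfxap was at 9.53, 9.81 and 6.34 FPKM in N-mDCs, at 8.52, 7.83 and 12.0 FPKM in T-DCs and at 9.64, 11.4 and 10.4 FPKM in T-mDCs, and the 3 groups overlapped. Its log2 difference was 0.13 (95% interval -0.37 to 0.62) against N-mDCs and -0.16 (95% interval -0.65 to 0.34) against T-mDCs. Rfxank was at 3.22, 3.21 and 3.22 FPKM in N-mDCs, at 3.63, 3.56 and 3.20 FPKM in T-DCs and at 2.75, 3.22 and 3.28 FPKM in T-mDCs. Rfxank stayed between 2.75 and 3.63 FPKM, the narrowest span of the 8 genes. Its log2 difference was 0.08 (95% interval -0.24 to 0.40) against N-mDCs and 0.13 (95% interval -0.19 to 0.45) against T-mDCs. Neither gene passed in any comparison.

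The ratio of Ciita to Rfx5 was 1.04 to 1.91 in T-DCs against 4.99 to 9.29 in N-mDCs and 3.86 to 4.54 in T-mDCs. Rfx5 lies on chromosome 3 (94954075 to 94961561, plus strand) and shares 26.8% of its exon bases with B230398E01Rik on the opposite strand, which was at no more than 0.098 FPKM in any sample. Rfxank lies on chromosome 8 (70130794 to 70139154, minus strand) and shares 33.8% of its exon bases with Nr2c2ap on the opposite strand, which was at 0.674 to 4.85 FPKM. Part of the Rfxank value can therefore come from Nr2c2ap. Rfxap (chromosome 3, 54803115 to 54807791, minus strand) shares no exon bases with another gene.

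NF-Y binds the Y box as a trimer, in which the histone-fold proteins NF-YB and NF-YC pair first and NF-YA joins them and reads the CCAAT sequence. Nfya was at 23.1, 15.7 and 21.5 FPKM in N-mDCs, at 13.4, 24.0 and 19.6 FPKM in T-DCs and at 20.2, 30.0 and 30.2 FPKM in T-mDCs, with overlapping groups. Its log2 difference was -0.09 (95% interval -0.70 to 0.51) against N-mDCs and -0.49 (95% interval -1.09 to 0.12, limma adjusted p = 0.256) against T-mDCs.

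Nfyb was at 5.44, 4.30 and 4.72 FPKM in N-mDCs, at 5.40, 13.9 and 12.8 FPKM in T-DCs and at 5.23, 6.47 and 6.67 FPKM in T-mDCs. T-DC samples 2 and 3 were above all other samples, and T-DC sample 1 lay among the mature ones. The log2 difference of Nfyb was 0.92 against N-mDCs (SE 0.31, limma adjusted p = 0.0727) and 0.62 against T-mDCs (SE 0.31, limma adjusted p = 0.212).

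Nfyc was at 14.0, 16.5 and 16.2 FPKM in N-mDCs, at 18.3, 22.7 and 25.5 FPKM in T-DCs and at 14.3, 14.7 and 16.8 FPKM in T-mDCs. All T-DC samples were above all mature samples. Its log2 difference was 0.47 against N-mDCs (SE 0.17, limma adjusted p = 0.0940) and 0.50 against T-mDCs (SE 0.17, limma adjusted p = 0.0931), so neither passed.

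**Figure D2:**
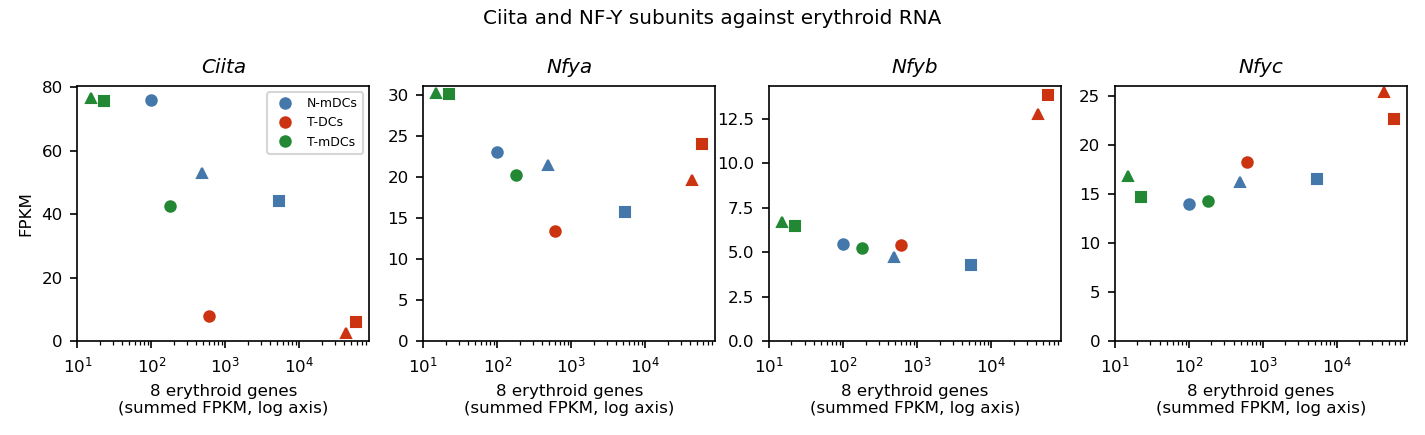
FPKM of Ciita, Nfya, Nfyb and Nfyc (vertical axes, from 0) against the summed FPKM of 8 erythroid genes (horizontal log axis), 1 point per sample (circle 1, square 2, triangle 3). Nfyb is at 12.8 and 13.9 FPKM in T-DC samples 2 and 3, the samples with the most erythroid RNA, and at 5.40 FPKM in T-DC sample 1, while Ciita is low in all 3.

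The T-DC samples with high Nfyb were those with the most erythroid RNA. The 8 erythroid genes summed to 607, 58100 and 42450 FPKM in T-DC samples 1 to 3, 99.4 to 5359 in N-mDCs and 15.1 to 180 in T-mDCs, and all 8 were at or above 1 FPKM in every T-DC sample. The 6 neutrophil markers followed the same split, with 7.78, 3285 and 1147 FPKM in T-DC samples 1 to 3, 55.3 to 612 FPKM in N-mDCs and 3.24 to 12.6 FPKM in T-mDCs, and of these Ly6g and Elane were at 0 in T-DC sample 1. With the erythroid covariate, the Nfyb difference was 0.45 against N-mDCs (limma adjusted p = 0.486) and -0.08 against T-mDCs (limma adjusted p = 0.951), and that of Nfyc was 0.25 (adjusted p = 0.501) and 0.16 (adjusted p = 0.820). Without T-DC sample 1 both genes passed in both comparisons, Nfyb at 1.30 (adjusted p = 0.00064) and 1.01 (adjusted p = 0.00236) and Nfyc at 0.60 (adjusted p = 0.0169) and 0.62 (adjusted p = 0.0163).

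Within NF-Y, the ratio of Nfyb to Nfya was 0.402, 0.578 and 0.650 in T-DC samples 1 to 3, against 0.220 to 0.274 in N-mDCs and 0.216 to 0.259 in T-mDCs. All 3 T-DC samples were above all mature samples for this ratio. In T-DC sample 1 the ratio was higher through a low Nfya level (13.4 FPKM, the lowest of the 9), and in T-DC samples 2 and 3 through a high Nfyb level. Nfya (chromosome 17, 48386885 to 48409906), Nfyb (chromosome 10, 82748701 to 82764144) and Nfyc (chromosome 4, 120757438 to 120831572) are all on minus strands and share no exon bases with another gene.

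CREB1 binds the X2 box and responds to cyclic AMP signalling through phosphorylation, which RNA levels do not show. Creb1 was at 6.16, 4.23 and 7.31 FPKM in N-mDCs, at 6.95, 5.90 and 4.97 FPKM in T-DCs and at 7.01, 9.73 and 9.23 FPKM in T-mDCs. T-DCs overlapped N-mDCs and lay just below T-mDCs, with 6.95 FPKM in the highest T-DC sample and 7.01 FPKM in the lowest T-mDC sample. Its log2 difference was 0.03 against N-mDCs (95% interval -0.48 to 0.53) and -0.47 against T-mDCs (95% interval -0.98 to 0.03, limma adjusted p = 0.192). T-mDCs and N-mDCs differed by 0.50 (95% interval -0.01 to 1.01, limma adjusted p = 0.304). Creb1 lies on chromosome 1 (64532645 to 64604548, plus strand) and shares no exon bases with another gene.

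Of the 8 genes, 1 (Ciita) passed as lower in T-DCs than N-mDCs and none as higher, where 10.3% of all tested genes passed as lower and 6.1% as higher. Against T-mDCs, 2 of 8 (Ciita and Rfx5) passed as lower and none as higher, where 8.79% of all tested genes passed as lower and 5.44% as higher. Between T-mDCs and N-mDCs none of the 8 passed, where 1.52% of all tested genes passed as lower and 0.69% as higher. At an unadjusted limma p under 0.05, 2 of the 8 (Ciita and Rfx5) were lower in both T-DC comparisons. At the same cut 2 were higher in the N-mDC comparison (Nfyb and Nfyc), 1 in the T-mDC comparison (Nfyc) and none differed between the mature groups. Of the 12746 tested genes, 4472, 3833 and 2130 were under this cut in the 3 comparisons, in either direction. Limma voom on the recovered reads called the same numbers of the 8 as the fit on FPKM in all 3 comparisons. By number, the share of the 8 called against N-mDCs was near the background, with 1 gene of the 8 carrying it. In the N-mDC comparison the median log2 difference of the 8 was 0.05, beside 0.05 over all tested genes, and in the T-mDC comparison it was -0.32, beside 0.07.

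**Figure D3:**
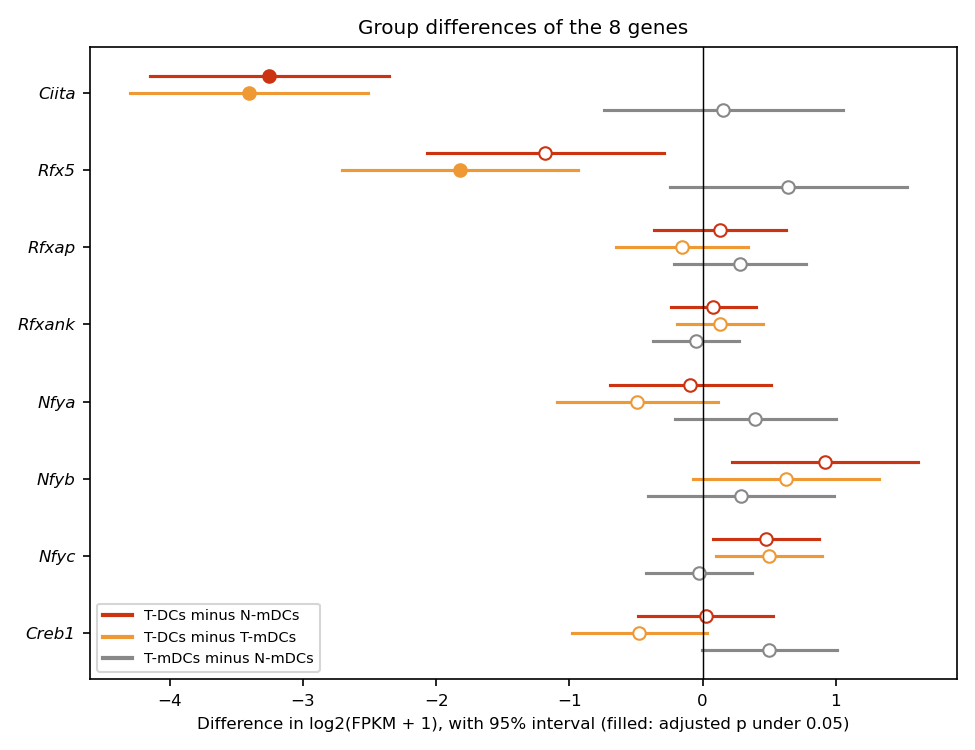
Differences in log2(FPKM + 1) (horizontal axis) of the 8 genes for T-DCs minus N-mDCs, T-DCs minus T-mDCs and T-mDCs minus N-mDCs, with 95% intervals from limma and filled points where the adjusted p was under 0.05. Ciita is at -3.25 and -3.40 in the T-DC comparisons and Rfx5 at -1.18 and -1.82, and no point of the T-mDC against N-mDC comparison is filled.

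FPKM is per length, and the length used for each of the 8 genes equalled all its annotated exon bases. Transcripts in use can be shorter, and exons of Ciita, Rfx5 and Rfxank overlap other genes, so the order of levels between genes is approximate. In N-mDCs the mean levels ran in the order Ciita, Nfya, Nfyc, Rfx5, Rfxap, Creb1, Nfyb and Rfxank, and T-mDCs had the same order. Ciita stood clear of Nfya in both groups (lowest Ciita sample 44.2 and 42.4 FPKM, highest Nfya sample 23.1 and 30.2 FPKM). In N-mDCs the neighbours from Nfya down to Nfyb overlapped, and Rfxank lay below Nfyb. In T-mDCs Nfya lay above Nfyc, the neighbours from Nfyc down to Creb1 overlapped, and Nfyb and Rfxank each lay below the gene before them.

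In T-DCs the order was Nfyc, Nfya, Nfyb, Rfxap, Creb1, Ciita, Rfx5 and Rfxank. Ciita, first in both mature groups, was sixth here. Its 2.48 to 8.01 FPKM lay below every Nfya and Nfyc value and overlapped the ranges of Nfyb, Rfxap, Creb1, Rfx5 and Rfxank.

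The MHCII pathway genes were low in T-DCs together with Ciita, which is a description, since the gate on T-DCs used surface MHCII. All 10 passed as lower against both mature groups, with median log2 differences of -4.12 and -3.46, and none passed between T-mDCs and N-mDCs by limma on FPKM or by voom (median -0.62, with 2 lower at an unadjusted p under 0.05). They were the classical chains H2-Aa, H2-Ab1 and H2-Eb1, the related chain H2-Eb2, the invariant chain Cd74, the peptide-exchange chains H2-DMa, H2-DMb1 and H2-DMb2, and H2-Oa and H2-Ob, which restrain peptide exchange. Over all tested genes, 10.3% passed as lower against N-mDCs, 8.79% against T-mDCs and 1.52% in T-mDCs against N-mDCs. H2-Aa was at 4067, 3536 and 2797 FPKM in N-mDCs, at 356, 185 and 81.0 FPKM in T-DCs and at 1869, 2815 and 2750 FPKM in T-mDCs.

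The ratio of each of these genes to Ciita moved less than Ciita itself, whose highest sample was 30.9 times its lowest. Cd74 was 147, 302 and 165 times the Ciita level in N-mDC samples 1 to 3, 143, 141 and 131 times in T-DC samples 1 to 3, and 145, 108 and 109 times in T-mDC samples 1 to 3. N-mDC sample 2 stood above the rest, and the T-DC values lay within the span of the mature samples. The highest ratio was 2.78 times the lowest for Cd74, 2.58 times for H2-Aa, 2.88 for H2-Ab1, 3.34 for H2-Eb1, 2.77 for H2-DMa, 2.50 for H2-DMb1, 2.82 for H2-DMb2, 3.18 for H2-Oa, 3.25 for H2-Ob and 4.10 for H2-Eb2.

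Not all ratios were placed alike in T-DCs. For H2-DMa the ratio to Ciita was 6.72 to 7.80 in T-DCs, 3.63 to 7.67 in N-mDCs and 2.82 to 3.81 in T-mDCs. H2-DMb1 had the same layout, at 5.68 to 8.03, 3.54 to 6.89 and 3.21 to 3.68. For H2-Eb1 the T-DC ratios of 49.5 to 71.9 lay below all N-mDC ratios (102 to 165) and overlapped those of T-mDCs (62.5 to 75.6). H2-Eb2 had T-DC ratios of 0.435 to 0.854, below all T-mDC ratios (1.12 to 1.45).

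**Figure D4:**
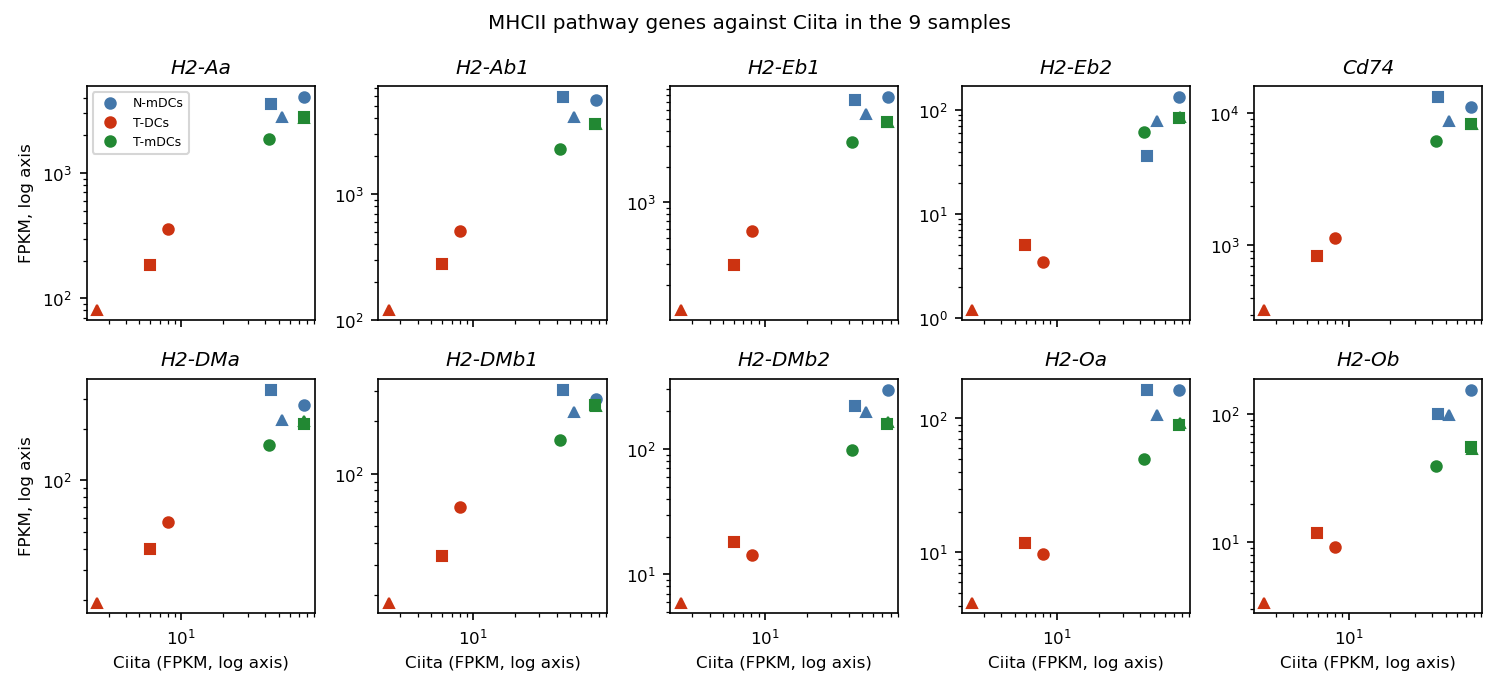
FPKM of the 10 MHCII pathway genes (vertical log axes) against that of Ciita (horizontal log axis) in the 9 samples, with circles, squares and triangles for samples 1, 2 and 3. The 3 T-DC samples lie at the lower left of every panel and T-DC sample 3, with 2.48 FPKM of Ciita, is the lowest in each, while T-mDC samples 2 and 3 nearly coincide.

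Within T-DCs, sample 3 had the least Ciita and the least of all 10 pathway genes. The pathway genes with the GCAAC and ATTGG pair in the promoters printed above had log2 differences from N-mDCs of -4.29 (H2-Aa), -4.62 (H2-Eb1), -4.25 (H2-Eb2), -4.00 (H2-Oa) and -3.80 (H2-Ob). Those with a promoter but without the pair had -2.92 (H2-DMa), -2.92 (H2-DMb1) and -4.23 (H2-DMb2). Outside the pathway genes, 108 tested genes held the pair in a promoter, and 10.2% of them passed as lower in T-DCs than N-mDCs, beside 10.5% of the 8830 tested genes with a promoter in the table. The shares that passed as higher were 10.2% and 6.66%. Against T-mDCs the shares were 11.1% and 9.03% lower, and 5.56% and 6.04% higher. These shares are descriptions with no test.

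Over the 9 samples, the genes whose log2(FPKM + 1) followed Ciita most closely, by Pearson r, were Slamf7, Adam19, Traf1, Relb, Als2cl, Rab11fip4, Bex6, Kcnip3, Adgra2 and Ap1s3, with r from 0.998 to 0.993 among 12745 genes. Slamf7, a SLAM family receptor, had mean levels of 5.26 FPKM in T-DCs, 46.7 in N-mDCs and 58.5 in T-mDCs, and Traf1, an adaptor of TNF receptor signalling, had 5.98, 54.9 and 62.4 FPKM in the same order. These correlations describe the split between T-DCs and mature samples, which all 9 points share, and carry no p. Among the MHCII pathway genes, H2-Eb2 ranked 36, H2-Aa 50, H2-Eb1 95, H2-DMb1 112, Cd74 118, H2-DMb2 128, H2-Ab1 134, H2-DMa 184, H2-Oa 234 and H2-Ob 424. The other members of the promoter complex ranked lower: Rfx5 658, Creb1 3358, Nfya 3562, Rfxap 6055, Rfxank 8362, Nfyb 10829 and Nfyc 12518. Ranks went by signed r, which was 0.902, 0.484, 0.446, -0.027, -0.427, -0.727 and -0.909 in the same order. The last ranks thus mark genes that ran opposite to Ciita.

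Of 20 genes known to act on Ciita transcription, 7 passed as lower and 1 as higher in T-DCs than in N-mDCs, and 6 passed as lower and none as higher than in T-mDCs (limma, with none higher at an unadjusted p under 0.05 or by voom). The median log2 difference of the list was -0.60 and -0.31, beside 0.05 and 0.07 over all tested genes. Relb, an NF-kB subunit of mature DCs, was at 144, 84.0 and 94.7 FPKM in N-mDCs, at 19.2, 14.4 and 8.43 FPKM in T-DCs and at 110, 154 and 159 FPKM in T-mDCs (log2 difference -2.88, adjusted p = 0.00151, and -3.29, adjusted p = 0.00143, limma).

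Irf4, an interferon regulatory factor, was at 55.3, 39.6 and 46.3 FPKM in N-mDCs, at 2.31, 8.49 and 3.45 FPKM in T-DCs and at 12.8, 16.7 and 16.2 FPKM in T-mDCs. The log2 difference of Irf4 was -3.20 against N-mDCs (limma adjusted p = 0.0015) and -1.64 against T-mDCs (limma adjusted p = 0.0200). Batf3, a factor of the cDC1 lineage that is also in the cDC1 marker list, was lower by -2.42 (limma adjusted p = 0.0147) and -2.50 (limma adjusted p = 0.0142). Both calls against T-mDCs were lost without T-mDC sample 2 or 3, and that of Irf4 also without T-DC sample 3, while against N-mDCs that of Batf3 was lost without N-mDC sample 1. The cDC1 markers as a whole summed to 21.1 to 96.8 FPKM in T-DCs, 200 to 293 in N-mDCs and 256 to 411 in T-mDCs.

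Jak2, a kinase of the interferon gamma receptor, was lower by -1.24 (limma adjusted p = 0.0487) and -1.95 (limma adjusted p = 0.0105). The Jak2 call against N-mDCs was lost under 14 of the 23 alternatives, with 7 of the 9 samples left out in turn among them (all but N-mDC sample 2 and T-DC sample 1). Against T-mDCs it was lost without T-mDC sample 2 or 3.

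Irf8, a factor that drives Ciita in DCs and B cells, was at 101, 136 and 108 FPKM in N-mDCs, at 90.2, 36.4 and 26.3 FPKM in T-DCs and at 136, 180 and 181 FPKM in T-mDCs. Irf8 passed against T-mDCs (log2 difference -1.87, limma adjusted p = 0.0194) and not against N-mDCs (-1.34, limma adjusted p = 0.0534), and the call was lost without T-DC sample 2 or T-mDC sample 2 or 3. Spi1 encodes PU.1, which acts with IRF8. Spi1 was at 212, 254 and 164 FPKM in N-mDCs, at 307, 180 and 116 FPKM in T-DCs and at 204, 175 and 181 FPKM in T-mDCs, with overlapping groups and log2 differences of -0.16 and -0.01. The 1 gene of the list that rose, named after its values were seen, was Socs3, an inhibitor of cytokine signalling (log2 difference 1.34 against N-mDCs, limma adjusted p = 0.0436). Socs3 did not pass against T-mDCs (0.16, limma adjusted p = 0.81), with means of 84.4 FPKM in T-DCs, 70.8 in T-mDCs and 30.7 in N-mDCs. Socs1, also named after its values were seen, passed as lower in both comparisons (-0.88, limma adjusted p = 0.0408, and -1.13, limma adjusted p = 0.0196). The Socs1 calls were lost under 14 and 6 of 22 alternatives. The Socs3 call was lost under 13 of the 23 alternatives, among them TPM, quantile normalization, no filter and leaving out any N-mDC sample, T-DC sample 2 or T-mDC sample 2 or 3. Against N-mDCs the list had 13 calls without T-DC sample 1, 4 without N-mDC sample 1 or 3, 5 without N-mDC sample 2 or T-mDC sample 2 or 3, and 2 with the erythroid covariate. Against T-mDCs it had 10 calls without T-DC sample 1, 1 without T-mDC sample 2 or 3 or with both averaged, and 0 with the erythroid covariate.

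Of 19 coactivators and chromatin partners of CIITA, 1 passed as lower and 1 as higher in T-DCs than in N-mDCs, and 1 passed as higher than in T-mDCs. The median log2 difference was 0.20 and -0.04. Crebbp, the histone acetyltransferase CBP that CIITA recruits, was at 6.92, 3.58 and 8.11 FPKM in N-mDCs, at 5.06, 4.68 and 3.11 FPKM in T-DCs and at 5.45, 7.05 and 7.35 FPKM in T-mDCs, and it did not pass (-0.41, limma adjusted p = 0.330, and -0.54, limma adjusted p = 0.239).

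Carm1, an arginine methyltransferase, was at 6.72, 4.93 and 7.26 FPKM in N-mDCs, at 11.2, 30.7 and 30.9 FPKM in T-DCs and at 8.36, 7.24 and 7.73 FPKM in T-mDCs. Carm1 was higher in T-DCs than in N-mDCs (log2 difference 1.68, limma adjusted p = 0.0161) and T-mDCs (1.40, limma adjusted p = 0.0340). The first call was lost under 6 of the 23 alternatives (leaving out N-mDC sample 1 or 2 or T-DC sample 2 or 3 among them). The second was lost under 13, with every single sample left out but N-mDC sample 2 and T-DC sample 1. Its highest samples were T-DC samples 2 and 3, those with the most erythroid RNA. Gtf2b, which encodes the general factor TFIIB, was lower in T-DCs than N-mDCs (-1.03, limma adjusted p = 0.00297) and also lower in T-mDCs than in N-mDCs (-0.86, limma adjusted p = 0.0232). The Gtf2b call against N-mDCs held for T-DCs under all 23 alternatives, and for T-mDCs it was lost under 9, among them TPM and leaving out N-mDC sample 2 or 3 or any T-mDC sample. The list had 6 and 2 calls without T-DC sample 1, and 1 and 0 with the erythroid covariate.

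**Figure D5:**
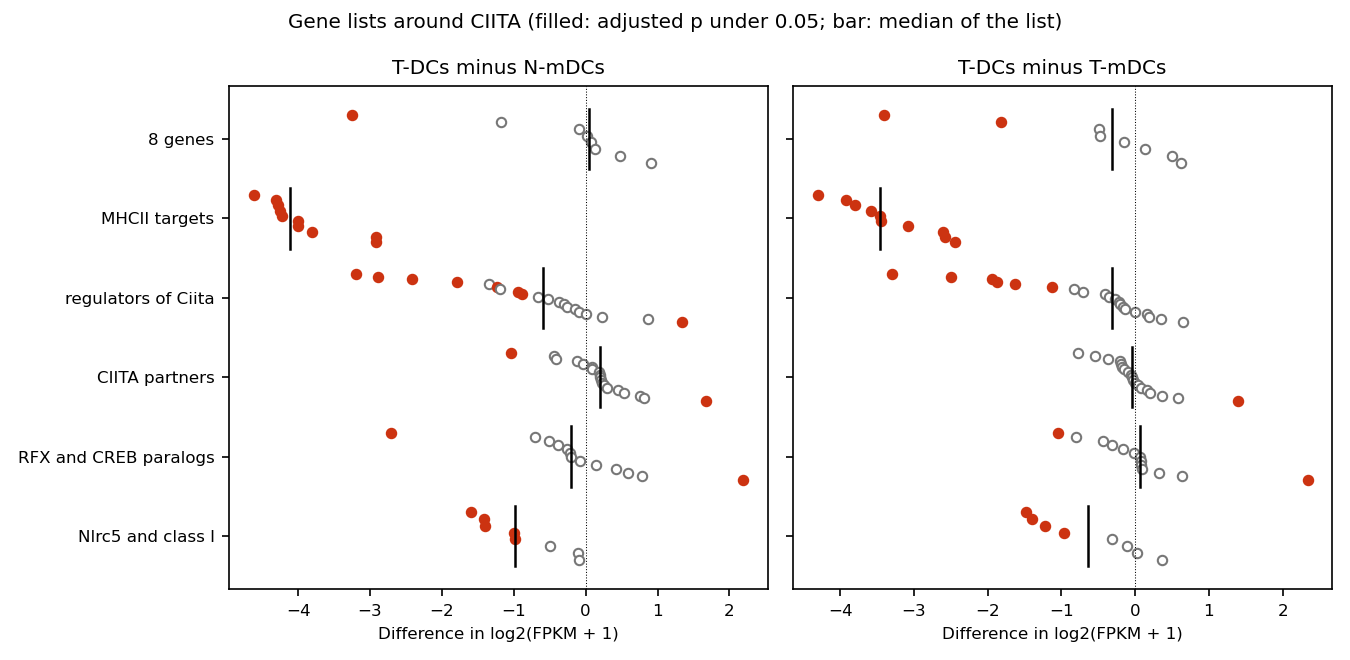
Differences in log2(FPKM + 1) (horizontal axis) of the tested genes of each list for T-DCs minus N-mDCs (left) and T-DCs minus T-mDCs (right), 1 point per gene, filled where the limma adjusted p was under 0.05, with a bar at the list's median. The MHCII targets lie at -4.62 to -2.92 and -4.30 to -2.44, and the medians of the coactivators are 0.20 and -0.04.

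Relatives of the RFX and CREB subunits were examined together with Crtc1, Crtc2 and Crtc3, coactivators of CREB. Of these 17 genes, 13 were tested, and Rfx4, Rfx6, Rfx8 and Creb5 were below the filter. Against N-mDCs, 1 passed as lower and 1 as higher, and against T-mDCs also 1 each. The shares over all tested genes were 10.3% lower and 6.1% higher, and 8.79% and 5.44%, in the same 2 comparisons. The median log2 differences were -0.20 and 0.06, beside 0.05 and 0.07 over all tested genes. Crem, which encodes activators and repressors of cyclic AMP response elements, was at 10.4, 12.3 and 20.1 FPKM in N-mDCs, at 1.12, 1.62 and 1.05 FPKM in T-DCs and at 0.890, 1.15 and 1.39 FPKM in T-mDCs. Crem was thus low in both leukemic groups, with log2 differences from N-mDCs of -2.71 for T-DCs (limma adjusted p = 0.000696) and -2.79 for T-mDCs (limma adjusted p = 0.00273).

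Rfx2 was at 0.726, 1.00 and 1.40 FPKM in N-mDCs, at 3.43, 11.1 and 13.9 FPKM in T-DCs and at 1.51, 0.559 and 0.573 FPKM in T-mDCs. Rfx2 was higher in T-DCs (log2 differences 2.19, limma adjusted p = 0.0120, and 2.34, limma adjusted p = 0.0104), most of all in T-DC samples 2 and 3. Crtc2 was at 24.2, 14.8 and 14.4 FPKM in T-DCs and at 27.4 to 40.7 FPKM in the mature samples, and passed against T-mDCs (-1.04, limma adjusted p = 0.0197). The list had 5 and 5 calls without T-DC sample 1, and 1 and 0 with the erythroid covariate. Against T-mDCs it had 0 calls without T-mDC sample 2 or 3 or with both averaged, and 1 without T-DC sample 2 or 3, where the Crtc2 call was lost.

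NLRC5 is the counterpart of CIITA for MHC class I genes and acts through the same RFX, CREB and NF-Y factors. Nlrc5 was at 29.6, 12.2 and 26.5 FPKM in N-mDCs, at 7.13, 8.86 and 6.33 FPKM in T-DCs and at 17.1, 25.9 and 25.4 FPKM in T-mDCs. Every T-DC sample was below every mature sample, and the log2 difference was -1.41 against N-mDCs (limma adjusted p = 0.0229) and -1.48 against T-mDCs (limma adjusted p = 0.0211). The first call was lost without N-mDC sample 1 or 3 or T-DC sample 2 or 3, and the second without T-DC sample 3 or T-mDC sample 2 or 3. Of Nlrc5 and 7 class I pathway genes, 5 passed as lower in T-DCs than N-mDCs and 4 as lower than in T-mDCs, with median log2 differences of -0.99 and -0.64. Beside these counts, 10.3% and 8.79% of all tested genes passed as lower in the same 2 comparisons. With the erythroid covariate no gene of this list passed, with medians of -0.99 and -0.33. Without T-DC sample 1 there were 6 and 4 calls, and against T-mDCs there was 1 call without T-mDC sample 2 or 3 and there were 2 without T-DC sample 3.

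The class I genes did not move alike. H2-M3 (log2 difference -1.60 against N-mDCs, limma adjusted p = 0.00508), Psmb9 (-1.40, limma adjusted p = 0.0102) and Tap1 (-0.98, limma adjusted p = 0.0103) were lower. B2m, the light chain of all class I molecules, differed by -0.10 (limma adjusted p = 0.753) and H2-D1 by -0.10 (limma adjusted p = 0.804). The promoters of B2m, H2-D1, H2-K1 and H2-M3 hold TGACG followed by ATTGG after 20 bases, a spacing searched for after the sequences had been seen. A gap of 15 to 25 bases between these motifs was in 4 of the 7 genes with a promoter in the table and in H2-Aa among the MHCII genes. It was in 0.488% of all genes with a promoter and in 0.435% of all promoters. None of the 7 held the GCAAC and ATTGG pair. The stretches of 3 of them are printed for comparison with H2-Aa, with TGACG and ATTGG in capitals, from chr2:122147584-122147648 (B2m, plus strand), chr17:34000349-34000413 (H2-K1, minus strand) and chr17:37270163-37270227 (H2-M3, plus strand).
B2m: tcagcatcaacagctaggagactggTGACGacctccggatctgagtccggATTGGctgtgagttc
H2-K1: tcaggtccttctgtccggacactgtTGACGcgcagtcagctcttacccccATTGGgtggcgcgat
H2-M3: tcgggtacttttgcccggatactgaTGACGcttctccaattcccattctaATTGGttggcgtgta

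B2m and H2-M3 thus share this spacing while their RNA differed in layout, with B2m at 2373 to 3421 FPKM in T-DCs and 2755 to 3126 FPKM in the mature samples, and H2-M3 at 21.8 to 43.5 FPKM in T-DCs and 51.1 to 98.5 FPKM in the mature samples.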

How the data were processed

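RNA of sorted splenic DCs was sequenced by a commercial provider, and the authors deposited 1 table of FPKM per gene and sample, with gene positions and lengths. The labels name build mm10. The aligner, annotation, filter and strand setting are not given in the sources used here. The member positions equal those of GENCODE M21 (GRCm38), which was used for exon overlaps. Multiplying FPKM by gene length recovered whole reads, to within 5.75e-05 of a read.

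Genes with at least 1 FPKM in at least 3 of 9 samples were analysed as log2(FPKM + 1), which understates changes of low genes. All samples entered 1 fit in limma 3.58.1 (R 4.3.3; lmFit, contrasts.fit, eBayes with trend) with 3 contrasts and Benjamini-Hochberg adjustment over all 12746 genes (threshold 0.05). The fit was tested on simulated reads with the same spread for every gene. The simulation lacked the differences in erythroid RNA and in closeness between samples seen here. It therefore does not measure how well the p-values hold for these samples. Alternatives were another pseudocount, no filter and a stricter filter (5 FPKM), TPM, quantile and median-of-ratios scaling, voom on the recovered reads, only the groups compared, array weights, no trend, a log2 threshold of 1, a replicate block, an erythroid covariate, the mean of T-mDC samples 2 and 3, and leaving out each sample. Members, lists and alternatives were chosen with earlier results of these data known.

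Named genes are the members, the MHCII targets, up to 4 called genes with the largest differences per other list, Irf8, Spi1, Nlrc5 and Crebbp, and the 10 genes closest to Ciita. 1 further gene that the rule names is not reported here. Genes that overlap members and class I genes whose promoters are described were named besides. Further marker lists were summed (FPKM, with the values in T-DCs first, then N-mDCs, then T-mDCs): pDC markers 119 to 195, 224 to 537 and 57.7 to 113, cDC2 markers 129 to 479, 358 to 378 and 174 to 295, macrophage markers 760 to 3116, 1494 to 3027 and 512 to 1365, and T-lineage markers 12.9 to 29.8, 96.1 to 117 and 57.7 to 109. The T-lineage sums of mature samples were mostly Cd4 (10.9 to 60.0 FPKM) and Cd8a (32.0 to 92.9 FPKM). Cd3d, Cd3e, Cd3g and Cd28 were under 1 FPKM in every T-mDC sample. Cd3d and Cd3g were highest in T-DC sample 2 (5.94 and 3.06 FPKM), and Cd3e, Cd28 and Lck were highest in N-mDCs.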

Additional observations from a re-analysis of the deposited data

How the results depend on the processing

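Ciita stayed lower in T-DCs than N-mDCs under all 23 alternatives (log2 difference -3.54 to -2.47, adjusted p 3.43e-06 to 0.0166) and lower than in T-mDCs under all but the erythroid covariate (-2.22, adjusted p = 0.193). Its difference between T-mDCs and N-mDCs changed sign with the erythroid covariate (-0.25) and when single samples were left out (-0.016 to 0.43). Members called against N-mDCs were 4 with array weights and 1 to 4 with single samples left out. Against T-mDCs they were 8 with array weights, 1 with T-mDC samples 2 and 3 averaged, 0 with the erythroid covariate and 1 to 4 with single samples left out. Between mature groups 1 was called with array weights. MHCII targets called were 0 against T-mDCs with the erythroid covariate, and 1 between mature groups with only the groups compared or array weights and 0 to 1 with single samples left out.

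All genes called, 2096 against N-mDCs, were 1070 with only the groups compared, 8485 with array weights, 1395 with T-mDC samples 2 and 3 averaged, 577 with the erythroid covariate and 980 to 5030 with single samples left out (5030 without T-DC sample 1). Those against T-mDCs, 1813, were 1190 under the stricter filter, 1036, 9923, 540 and 0 under those settings in the same order, and 541 to 4475. Those between mature groups, 282, were 107 with a pseudocount of 0.1, 111 under the stricter filter, 99 with TPM, 850 with only the groups compared, 3841 with array weights, 179 with voom, 23 with T-mDC samples 2 and 3 averaged and 23 to 1022. The array weights did not reach convergence. TPM moved the median of all genes to -0.23 against T-mDCs and 0.23 between mature groups, and the share of lower calls from 61.8% to 78.1% and from 68.8% to 50.5%.

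Samples that share a number did not deviate together (correlations -0.47 to 0.27). A replicate block gave 1378 calls against N-mDCs and 78 between mature groups and changed no call of a member.

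Changes of sign occurred only in members whose differences had not passed. Ranges here are over fits with single samples left out. Against N-mDCs, Rfxap was -0.068 with array weights (range -0.052 to 0.24), Rfxank -0.0047 with TPM, Nfya 0.14 with array weights (range -0.27 to 0.13), and Creb1 -0.075 with TPM, -0.050 with quantile normalization and -0.089 with array weights (range -0.16 to 0.17). Against T-mDCs, Rfxank was -0.14 with TPM, and with the erythroid covariate Nfyb was -0.083 and Creb1 0.077. Between mature groups, Rfxank was 0.14 with TPM (range -0.084 to 0.010), and Nfyc 0.19 with TPM, 0.020 with quantile normalization, 0.062 with array weights and 0.092 with the erythroid covariate (range -0.096 to 0.018). Rfxank was not tested under the stricter filter. The cause of these changes was not tested.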
